A study of Mus musculus with 5 samples.

Results

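The genes of the respiratory chain and the tricarboxylic acid (TCA) cycle were followed in lungs of mice given the allergen ovalbumin. Their members are the probes whose platform annotation names only 1 gene and whose symbol belongs to the families of complexes I to IV, cytochrome c, ATP synthase, the TCA cycle enzymes and the pyruvate dehydrogenase E1 subunits. The rule named 104 genes, of which 91 had a probe with a value on at least 4 of 5 arrays, among 9715 genes measured in all. The study hybridised lung RNA of 5 mice of the inbred strain C3H that received ovalbumin, an egg-white protein, as sensitiser and as challenge (ova mice 1 to 5). Each ova mouse shared a 2-colour array with a pool of RNA from lungs of control C3H mice, and all RNA had been amplified. The sources used here do not give the treatment or number of the control mice, nor the animals' age and sex.

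Mitochondria oxidise pyruvate through pyruvate dehydrogenase and the TCA cycle, which pass electrons as NADH and succinate to complexes I and II. Complexes III and IV carry the electrons on to oxygen, with cytochrome c as the shuttle between them, and ATP synthase uses the proton gradient that results. Several subunits of complex IV, cytochrome c oxidase, exist in a widely expressed form and in a form restricted to heart and skeletal muscle or brown fat, tissues rich in mitochondria. In the lung, alveolar type 2 cells and ciliated cells are known for high mitochondrial content.

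The deposited value is a log ratio of the 2 channels of an array. Its base is not stated and is read here as 2, and it was centred on each array's median. The labels do not state which channel is the numerator, so ratios below 0 are called the negative side and ratios above 0 the positive side, with no direction between ova and control lungs. Retnla and Clca1, known to rise in allergic airways in mice, lay on the negative side at -4.79 ± 0.30 and -4.33 ± 0.40 (mean ± SD, n = 5). Each gene was tested against a ratio of 0 with limma, adjusted over all 9715 genes by the Benjamini-Hochberg method, at a threshold of 0.05. A call therefore compares the ova mice with 1 pool, without the spread among control mice, and a dye bias shared by all arrays cannot be told apart from the comparison. Arrays held between 11778 and 13320 probe values, and 88 to 90 of the 91 member genes had a value on each array. Across probes the ratios of mouse 1 spread less (SD 0.20) than those of mice 2 to 5 (SD 0.32 to 0.38). Ratios hold no expression level, so the lung identity of the samples could not be checked by level. Of 8 alveolar type 2 cell markers listed, 6 were measured, among them the surfactant protein genes Sftpc (0.67) and Sftpd (-0.47, n = 4). In whole lung, fewer cells of a type and less RNA per cell cannot be told apart.

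The genes of oxidative metabolism stayed close to 0 as a group, with single genes well away from it on either side. Their median mean ratio was 0.0082, against 0.00025 over all genes. Past the threshold were 18 of 91 members, or 19.8%, against a background of 27.5% over all genes. The calls split evenly: 9 members passed below 0, where the background was 15.2%, and 9 above it, where the background was 12.3%. Mean ratios were smaller than 0.2 in size for 72 members, or 79.1%, against 72.5% of all genes. Beyond 0.5 lay 4 members: the complex IV subunit genes Cox8b and Cox7a1 with positive means, and the complex IV subunit gene Cox5a and the citrate synthase gene Cs with negative means. These 4 also kept their side and their call under every alternative that could be run for them. Of the 14 other calls, those of Uqcrfs1, Idh3a, Sdhc, Atp5j2 and Cox18 were lost under 1 alternative, a test against a minimum size of 0.2 (limma adjusted p of 0.25 to 1), and the rest under several. Without mouse 3 or without mouse 5, 5 members passed on each side. Under an unadjusted limma p of 0.05 lay 31 of 91 members, against 3907 of all 9715 genes. Of the 91 members, 27 lay on 1 side in every mouse that measured them, or 29.7%, against 40.1% of all genes.

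**Figure D1:**
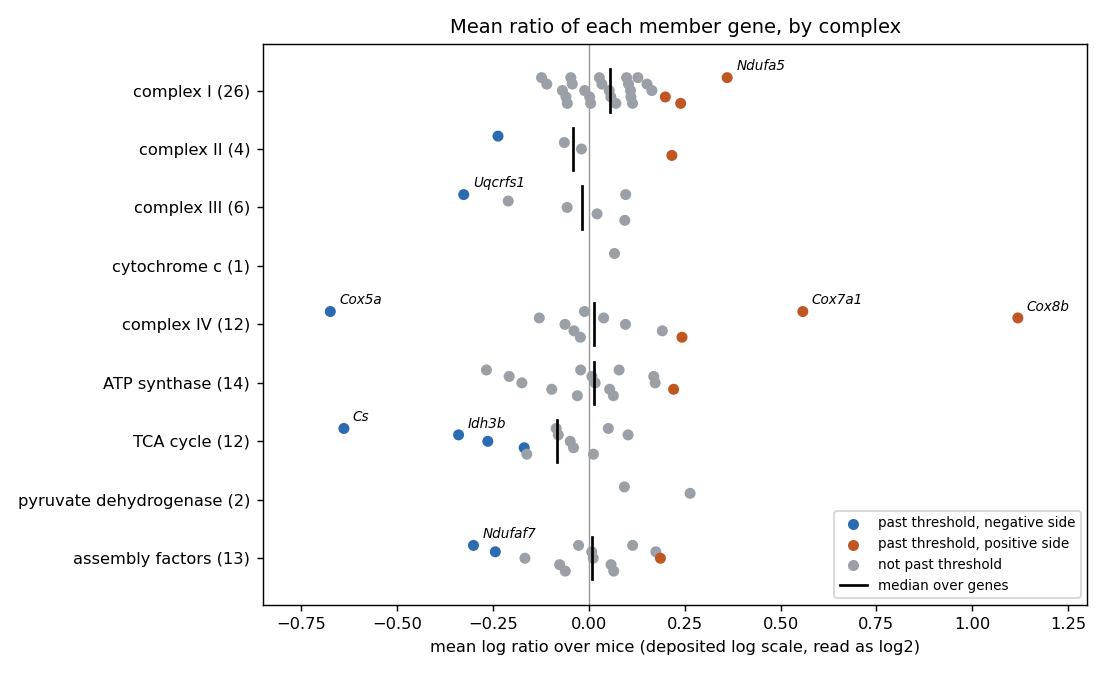
Each point is 1 member gene, placed by its mean log ratio over the mice (x axis, deposited log scale read as log2) in the row of its complex, with the number of genes in brackets. Colours mark the side of genes past the threshold and black bars the median over genes. The pseudogene Ndufs5-ps is not drawn. In all, 72 of the 91 genes lie within 0.2 of 0, while Cox8b (1.12), Cox7a1 (0.56), Cox5a (-0.67) and Cs (-0.64) stand far outside.

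The TCA cycle enzymes had a median of -0.082, with 9 of 12 means below 0. Past the threshold were 4 genes below 0, or 33.3%, against 15.2% of all genes called on that side, and 0 above it. Citrate synthase, Cs, which condenses acetyl-CoA with oxaloacetate at the entry of the cycle, had ratios of -0.32, -0.74, -0.57, -0.90 and -0.67 in mice 1 to 5. All 5 values lay below 0, with mouse 1 nearest to it. The mean was -0.64 ± 0.22 (SD, n = 5), a 1.56-fold difference if the base is 2 (95% confidence interval -0.82 to -0.45, limma adjusted p = 0.00169).

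NAD-dependent isocitrate dehydrogenase, a rate-setting step of the cycle, is built from alpha, beta and gamma subunits. The catalytic alpha subunit gene Idh3a had -0.09, -0.23, -0.26, -0.34 and -0.40 in mice 1 to 5, and its mean of -0.26 ± 0.12 passed (limma adjusted p = 0.0105, n = 5). The beta subunit gene Idh3b had 0.001, -0.09, -0.47, -0.78 and -0.37 in mice 1 to 5. These values ranged from near 0 in mouse 1 to well below it in mouse 4, and the mean of -0.34 ± 0.31 passed narrowly (limma adjusted p = 0.0492, n = 5). Its call was lost without mouse 2, 3, 4 or 5 and held under 7 of 16 alternatives, with means of -0.42 to -0.23 when a mouse was left out and limma adjusted p-values of 0.0229 to 0.707 over all alternatives. The regulatory gamma subunit gene Idh3g lay on the other side of 0, at 0.02, -0.04, 0.15, 0.25 and 0.14, and did not pass (mean 0.10 ± 0.11, limma adjusted p = 0.198, n = 5). Within each mouse the ratios of Idh3a and of Idh3b were below that of Idh3g, on average by 0.37 ± 0.21 and 0.44 ± 0.42 (SD, n = 5 mice). The subunit pairs in this account were compared within mice as a description, 8 pairs in all. With 5 mice an exact two-sided sign-flip test cannot go below 0.0625.

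Fumarase, Fh1, which hydrates fumarate to malate, had -0.06, -0.08, -0.15, -0.22 and -0.33 in mice 1 to 5. Every value was below 0 and the mean of -0.17 ± 0.11 lay at the edge of the threshold (limma adjusted p = 0.0498, n = 5). The call of Fh1 was lost on leaving out any 1 mouse (means -0.20 to -0.13) and held under 7 of 16 alternatives (limma adjusted p-values 0.0358 to 1). The cytosolic malate dehydrogenase gene Mdh1 (-0.16 ± 0.16, n = 5) did not pass, but did without mouse 1 (mean -0.21, limma adjusted p = 0.0454, 0.0454 to 1 over its 16 alternatives). The mitochondrial NADP-dependent isocitrate dehydrogenase gene Idh2 stood at 0.01 ± 0.09, and Ogdh, the E1 subunit of the 2-oxoglutarate dehydrogenase complex, at -0.05 ± 0.11. The succinyl-CoA ligase genes Sucla2, Suclg1 and Suclg2 lay between -0.085 and 0.051, but the 2 probes of Sucla2 disagreed, at -0.21 and 0.31, each on 1 side in all 5 mice. None of these passed. With the probe of smallest SD taken for each gene, the TCA cycle median was -0.12. Of the genes not measured on enough arrays, cytosolic Idh1 had -0.07, -0.12 and -0.07 in mice 1, 2 and 5, cytosolic Aco1 had values on 2 arrays and mitochondrial Mdh2 on none.

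The pyruvate dehydrogenase E1 subunit genes, which commit pyruvate to the cycle, did not pass. The alpha subunit gene Pdha1 had a mean of 0.09 ± 0.06 (n = 5), above 0 in all 5 mice. The beta subunit gene Pdhb had 0.36, 0.46, 0.20, -0.34 and 0.65 in mice 1 to 5, so that mouse 4 alone was below 0. Its mean was 0.26 ± 0.38 (limma adjusted p = 0.159, n = 5), and without mouse 4 it was 0.42 and passed (limma adjusted p = 0.0152, 0.0152 to 1 over its 16 alternatives). Pdhb lay above Pdha1 in 4 of 5 mice, on average by 0.17 ± 0.38. The testis form Pdha2 had no value on any array.

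Complex I, NADH dehydrogenase, had a median of 0.055, with 18 of 26 means (Ndufa4 included) above 0. Past the threshold were 3 genes above 0, or 11.5%, close to the 12.3% of all genes called on that side, and 0 below it. All 3 calls were small accessory subunits of the Ndufa series. Ndufa5 had 0.22, 0.06, 0.36, 0.79 and 0.38 in mice 1 to 5, highest in mouse 4 and lowest in mouse 2, with a mean of 0.36 ± 0.27 (limma adjusted p = 0.0257, n = 5). Ndufa7 had 0.07, 0.12, 0.28, 0.39 and 0.34 (mean 0.24 ± 0.14, limma adjusted p = 0.0212, n = 5). Both calls depended on single mice. Ndufa5 lost its call without mouse 3 or 5 and Ndufa7 without mouse 3, 4 or 5, with means of 0.25 to 0.44 and 0.20 to 0.28 on leaving out a mouse. Limma adjusted p-values ran from 0.0112 to 0.456 over the 16 alternatives of Ndufa5 and from 0.0114 to 1 over those of Ndufa7.

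Ndufa3 had 0.25, 0.14, 0.05, 0.43 and 0.12 in mice 1 to 5. It passed with a mean of 0.20 ± 0.15 (limma adjusted p = 0.045, n = 5), but its 2 probes disagreed, at -0.02 and 0.42. The steadier of these probes alone gave -0.02, and the call was lost on leaving out any 1 mouse (means 0.14 to 0.24) and held under 8 of 16 alternatives (limma adjusted p-values 0.0343 to 1). The 6 measured genes of the nuclear-encoded core, which carries the electron path, were Ndufs1, Ndufs3, Ndufs7, Ndufs8, Ndufv1 and Ndufv2. Their means lay between -0.069 and 0.034 with a median of -0.050, 5 of 6 below 0, and none passed. Of these, Ndufs8 and Ndufv1 were above 0 in 3 of 5 mice each, with -1.06 and -0.35 in mouse 4. The 20 accessory subunits had a median of 0.10, 17 of 20 above 0. This division of complex I was made after the values were seen and carries no test. By mouse the core median was -0.026, 0.077, -0.054, -0.14 and 0.044 in mice 1 to 5, and the accessory median 0.058, -0.0025, 0.053, 0.116 and 0.095, so the core median was the higher one in mouse 2. Ndufs1, the 1 core gene with a mean above 0, also had 2 probes that disagreed, at -0.39 and 0.33. Each lay on 1 side in every mouse with a value, so its mean near 0 averages opposite readings. In mouse 1 only the probe at 0.33 had a value. Ndufa4, named as a complex I gene but now known as a subunit of complex IV, had 0.16 ± 0.13 and did not pass (limma adjusted p = 0.069, n = 5), with values above 0 in all 5 mice. The remaining complex I genes had means of -0.12 to 0.15. Ndufa10, Ndufb4 and Ndufs4 had values on 2 arrays each and Ndufb10 on none, and Ndufs5-ps, a pseudogene outside the 26, gave -0.0043 ± 0.27 (n = 4).

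Complex II, succinate dehydrogenase, belongs to both the cycle and the chain, and its 4 subunit genes fell on both sides. Sdhc and Sdhd encode the 2 membrane anchors that bind ubiquinone. Sdhc had 0.15, 0.16, 0.35, 0.18 and 0.24 in mice 1 to 5 and passed on the positive side (mean 0.22 ± 0.08, limma adjusted p = 0.0135, n = 5). Sdhd had -0.03, -0.41, -0.20, -0.39 and -0.16 and passed on the negative side (mean -0.24 ± 0.16, limma adjusted p = 0.0314, n = 5). Since each kept its own side of 0 in all 5 mice, Sdhc necessarily lay above Sdhd in each, on average by 0.45 ± 0.17. Sdhd lost its call without mouse 2, 3, 4 or 5 and held it under 11 of 16 alternatives (means -0.29 to -0.19 on leaving out a mouse, limma adjusted p-values 0.0163 to 1). The flavoprotein gene Sdha (-0.06 ± 0.11) and the iron-sulphur subunit gene Sdhb (-0.02 ± 0.19) did not pass.

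In complex III, the cytochrome bc1 complex, 1 of 6 measured genes passed, or 16.7%, against 27.5% of all genes. The Rieske iron-sulphur protein gene Uqcrfs1 had -0.27, -0.30, -0.19, -0.53 and -0.34 in mice 1 to 5, all below 0, with a mean of -0.33 ± 0.12 (limma adjusted p = 0.00536, n = 5). The cytochrome c1 gene Cyc1 was measured by 17 probes, whose means all lay below 0, between -0.43 and -0.026. Averaged over probes, Cyc1 had -0.035, -0.13, -0.23, -0.49 and -0.17 in mice 1 to 5. It did not pass (mean -0.21 ± 0.17, limma adjusted p = 0.0514, n = 5) but did under quantile normalization, scaling of arrays, array weights and when mouse 1 was left out (mean -0.25, limma adjusted p = 0.0374), with adjusted p-values of 0.0364 to 1 over all 16 alternatives. Its mean was -0.13 as the median over probes and -0.061 for the probe of smallest SD (limma adjusted p = 0.288). The 17 probes carry consecutive IDs, and runs of them read alike. In mouse 4, IDs 6880 to 6883 gave -1.45 to -0.77 and IDs 6888 to 6892 gave -0.078 to -0.005. Whether the probes are independent measures was not tested. The SD between them within an array averaged 0.22, against 0.068 between the 2 probes of Uqcrq and 0.36 between those of Sucla2. The small subunit genes Uqcrb, Uqcrh, Uqcrq and Uqcr11 lay between -0.056 and 0.096 and did not pass. Cycs, the somatic cytochrome c gene, gave 0.06 ± 0.15 (limma adjusted p = 0.481, n = 5).

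Complex IV held the widest spread. Of 12 subunit genes measured, Cox8b, Cox7a1 and Cox6c passed above 0 and Cox5a below it, with a median of 0.014. These calls were 33.3% of the 12 genes, against 27.5% of all genes called on either side. Cox8b, the form of subunit VIII found in heart and skeletal muscle and brown fat of the mouse, had 0.53, 1.13, 1.29, 1.41 and 1.23 in mice 1 to 5. Mouse 1 was the lowest and mice 2 to 5 lay close together. Its mean of 1.12 ± 0.34 was a 2.17-fold difference if the base is 2 (limma adjusted p = 0.000934, n = 5) and ranked 5 among all 9715 genes on the positive side. The widely expressed partner Cox8a, at -0.20, -0.22, 0.15, 0.15 and -0.07 in mice 1 to 5, lay on both sides of 0 and did not pass (mean -0.04 ± 0.18, limma adjusted p = 0.717, n = 5). Cox8b lay above Cox8a in all 5 mice, by 1.16 ± 0.25.

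Cox7a1, the heart and skeletal muscle form of subunit VIIa, followed with 0.28, 0.57, 0.61 and 0.77 in mice 1, 2, 4 and 5, with no value in mouse 3. The mean was 0.56 ± 0.21 (limma adjusted p = 0.00431, n = 4). The related gene Cox7a2l, whose product joins complexes III and IV into supercomplexes, had a mean of -0.13 ± 0.12 (n = 5) and lay below Cox7a1 in all 4 mice that measured both. The widely expressed form Cox7a2 was left out, with 0.12, 0.39 and 0.24 in mice 1 to 3. The muscle form Cox6a2 was left out too, with 0.10, 0.29 and 0.36 in mice 1, 2 and 5, and its widely expressed partner Cox6a1 gave 0.10 ± 0.17 (n = 5). Cox4i2, a form of subunit IV known from lung and smooth muscle, gave 0.19 ± 0.13 (limma adjusted p = 0.0639, n = 4), above 0 in the 4 mice that measured it. The common form Cox4i1 gave 0.04 ± 0.09 (limma adjusted p = 0.595, n = 5). Cox4i2 lay above Cox4i1 in 3 of the 4 mice that measured both, on average by 0.14 ± 0.18. Cox6b1 had no value on any array and Cox7b2, a testis form, had 1.

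Cox5a, a nuclear-encoded subunit next to the catalytic core of the enzyme, had -0.51, -0.81, -0.45, -0.72 and -0.89 in mice 1 to 5. All values lay well below 0, with no mouse apart, and the mean was -0.67 ± 0.19, a 1.60-fold difference if the base is 2 (limma adjusted p = 0.00103, n = 5). Cox5b, which encodes the neighbouring subunit Vb, gave -0.01 ± 0.12 (limma adjusted p = 0.899, n = 5), and Cox5a lay below it in all 5 mice, by 0.66 ± 0.17. Cox6c, a small nuclear-encoded subunit, passed on the positive side with 0.11, 0.11, 0.33, 0.35 and 0.31 in mice 1 to 5 (mean 0.24 ± 0.12, limma adjusted p = 0.0155, n = 5). The call of Cox6c was lost without mouse 3 or 5 (means 0.22 to 0.28 on leaving out a mouse, limma adjusted p-values 0.0075 to 1 over 16 alternatives).

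**Figure D2:**
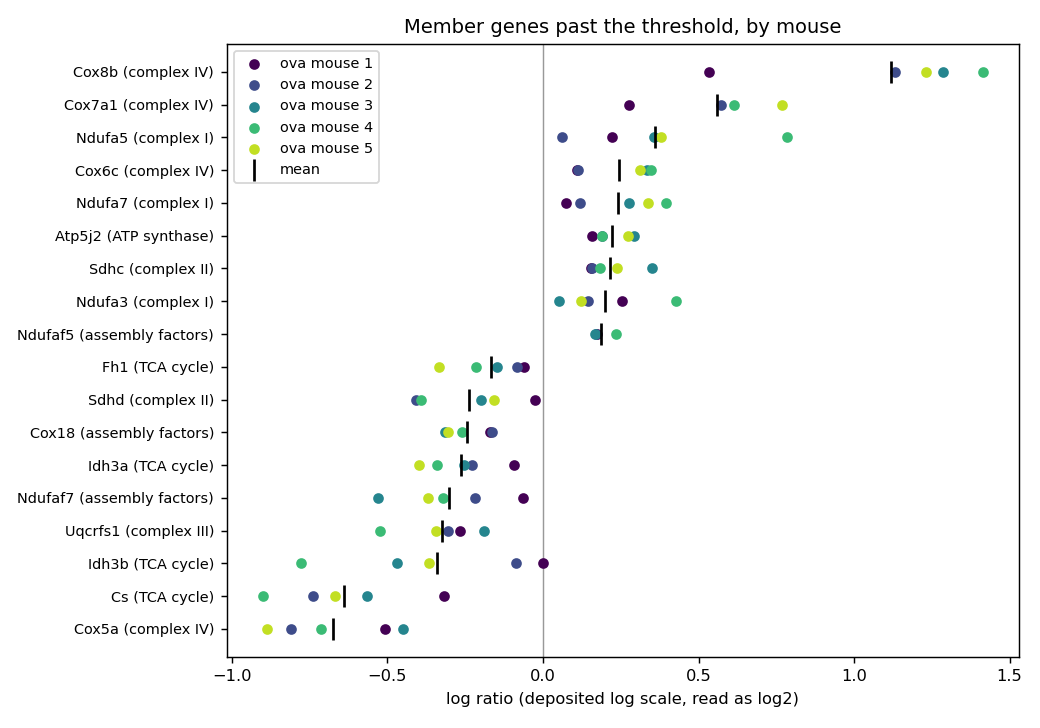
The 18 member genes past the threshold run down the page from the highest to the lowest mean, with the log ratio (deposited scale read as log2) on the x axis, 1 coloured point per ova mouse and a bar for the mean. Cox8b, Cox7a1, Cox5a and Cs keep clear of 0 in every mouse that measured them, while Idh3b reaches 0 in mouse 1.

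The sequences upstream of the genes furthest from 0 are shown because the muscle forms Cox8b and Cox7a1 held fewer CpG dinucleotides there than Cox5a and Cs. Each is the stretch of 250 bases before the annotated start, 5′ to 3′ on the gene's strand, from RefSeq on build GRCm38.p6, with CpG dinucleotides in capitals. Where a gene had several annotated starts, the one farthest upstream was taken, here and in the counts over all promoters. The stretches lie at chr7:140900447-140900696 on the minus strand for Cox8b, chr7:30183921-30184170 on the plus strand for Cox7a1, chr9:57520982-57521231 on the plus strand for Cox5a and chr10:128337477-128337726 on the plus strand for Cs.
Cox8b: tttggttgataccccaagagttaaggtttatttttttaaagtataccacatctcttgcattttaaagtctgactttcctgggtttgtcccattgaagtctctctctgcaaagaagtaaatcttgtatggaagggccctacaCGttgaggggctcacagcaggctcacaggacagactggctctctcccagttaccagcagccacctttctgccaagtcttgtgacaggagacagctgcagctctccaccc
Cox7a1: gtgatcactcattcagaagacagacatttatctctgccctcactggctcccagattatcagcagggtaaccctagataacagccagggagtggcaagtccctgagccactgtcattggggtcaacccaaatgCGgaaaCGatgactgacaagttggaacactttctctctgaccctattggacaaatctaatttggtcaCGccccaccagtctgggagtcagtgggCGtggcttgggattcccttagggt
Cox5a: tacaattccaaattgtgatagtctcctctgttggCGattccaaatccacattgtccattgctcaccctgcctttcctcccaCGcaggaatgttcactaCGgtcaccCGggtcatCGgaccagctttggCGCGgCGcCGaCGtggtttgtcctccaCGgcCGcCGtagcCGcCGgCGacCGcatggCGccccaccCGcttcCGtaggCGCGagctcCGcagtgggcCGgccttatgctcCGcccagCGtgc
Cs: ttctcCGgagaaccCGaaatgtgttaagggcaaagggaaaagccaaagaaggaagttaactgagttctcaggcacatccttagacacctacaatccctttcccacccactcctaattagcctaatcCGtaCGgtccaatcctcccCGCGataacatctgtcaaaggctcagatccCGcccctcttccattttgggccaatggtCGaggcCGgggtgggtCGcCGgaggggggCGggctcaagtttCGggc
Cox8b held 1 CpG and Cox7a1 4, against 26 in Cox5a and 13 in Cs. Of the 91 members, 77 had a promoter in the table, and their median was 17 CpG, against 6 over 27025 promoters of the same length. At most 4 CpG were found in 3 of the 77, which were Cox8b, Cox7a1 and the complex I gene Ndufc2, and in 44.5% of all promoters. Motifs of 6 factors were searched on both strands. The palindromic consensus of NRF1, a known regulator of respiratory genes, occurred in 5 of 77 members (6.49%) and 0.777% of all promoters. Its 5 members were Ndufa11, Ndufaf4, Atp5g2, Atp5k and Cox6a1, none of them past the threshold. The ETS motif ACTTCCGG occurred in 5 of 77 (6.49%) and 2.92% of all promoters, and CCAAT in 34 of 77 (44.2%) and 34.5%. For MEF2 a loose pattern was searched, with its 4 middle bases left free, so a match need not be a MEF2 site. This pattern occurred in 1 of 77, Cox5b, and 3.23% of all promoters. Other forms of the MEF2 site were not searched, so their presence upstream of Cox8b and Cox7a1 was not tested. The YY1 motif AAGATGGCG occurred in 1 of 77, Idh3g, and 0.592%, and the ERR motif TCAAGGTCA in 0 and 0.366%. Median GC content was 58.4% in the 77 members and 52.0% over all promoters. The motif shares were not matched for GC or CpG content, so an excess need not be particular to respiratory genes. None of these motifs contains another, and a match describes the letters alone.

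ATP synthase showed 1 call among 14 measured genes, or 7.14%, against 27.5% of all genes. Atp5j2, which encodes the f subunit of the membrane part, had 0.16, 0.19, 0.29, 0.19 and 0.27 in mice 1 to 5 and the mean of 0.22 ± 0.06 passed (limma adjusted p = 0.00918, n = 5). The catalytic beta subunit gene Atp5b (-0.10 ± 0.12) and the alpha subunit gene Atp5a1 (0.05 ± 0.27) did not pass. The gamma subunit gene Atp5c1, part of the rotating stalk, had -0.03, -0.17, -0.10, -0.82 and -0.21, with mouse 4 far below the others (mean -0.27 ± 0.32, limma adjusted p = 0.106, n = 5). Without mouse 4 its mean was -0.13. The 14 means ran from -0.27 to 0.22 with a median of 0.012.

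Assembly factors, which build the complexes without being part of them, gave 3 calls among 13 measured, or 23.1%, against 27.5% of all genes. These 3 genes were named after their values were seen, apart from Ndufaf7. Ndufaf7, a methyltransferase needed for complex I, had -0.07, -0.22, -0.53, -0.32 and -0.37 in mice 1 to 5 (mean -0.30 ± 0.17, limma adjusted p = 0.0149, n = 5). Cox18, an insertase for a membrane subunit of complex IV, had -0.17, -0.17, -0.32, -0.26 and -0.31 (mean -0.24 ± 0.07, limma adjusted p = 0.00762, n = 5). Ndufaf5, a complex I assembly factor, lay on the positive side at 0.19 ± 0.03 (limma adjusted p = 0.031, n = 4). Ndufaf7 lost its call without mouse 3 or 5 (means -0.36 to -0.24 on leaving out a mouse, limma adjusted p-values 0.00694 to 0.587 over 16 alternatives). Ndufaf5 lost its call on leaving out any of the 4 mice that measured it (means 0.17 to 0.19, limma adjusted p-values 0.0225 to 1 over 15). The 13 genes had a median of 0.0076. Sdhaf4 was left out, with values on 3 arrays.

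Set side by side, the medians were 0.055 for complex I, -0.041 for complex II, -0.017 for complex III, 0.014 for complex IV, 0.012 for ATP synthase and -0.082 for the TCA cycle. The 2 pyruvate dehydrogenase genes had the highest median, 0.18, with -0.11 in mouse 4 and 0.12 to 0.38 in the other mice. By mouse, the median of complex I was 0.041, 0.021, 0.019, 0.069 and 0.055 in mice 1 to 5, above 0 in all 5. The median of the TCA cycle was -0.044, -0.082, -0.091, -0.17 and -0.13, below 0 in all 5 and in 4 of 5 mice the lowest of the 6 groups other than pyruvate dehydrogenase. The complex I median exceeded the TCA cycle median in every mouse, by 0.085 in mouse 1 to 0.24 in mouse 4. The medians of complex II, complex III, complex IV and ATP synthase changed sign between mice. No p-value is given for these medians, since the members were chosen with earlier results known. Of other protein complexes, the 58 mitochondrial ribosomal protein genes had 13.8% past the threshold, 4 on each side, and a median size of 0.059, against 0.094 for the 91 members and 0.11 for all genes. The 57 cytosolic ribosomal protein genes had 8 calls on the negative and 5 on the positive side, or 22.8%. Over all genes the share past the threshold was 27.5%. Both ribosomal groups also had medians below 0 in all 5 mice, from -0.10 to -0.0020 for the mitochondrial and from -0.087 to -0.0051 for the cytosolic one.

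**Figure D3:**
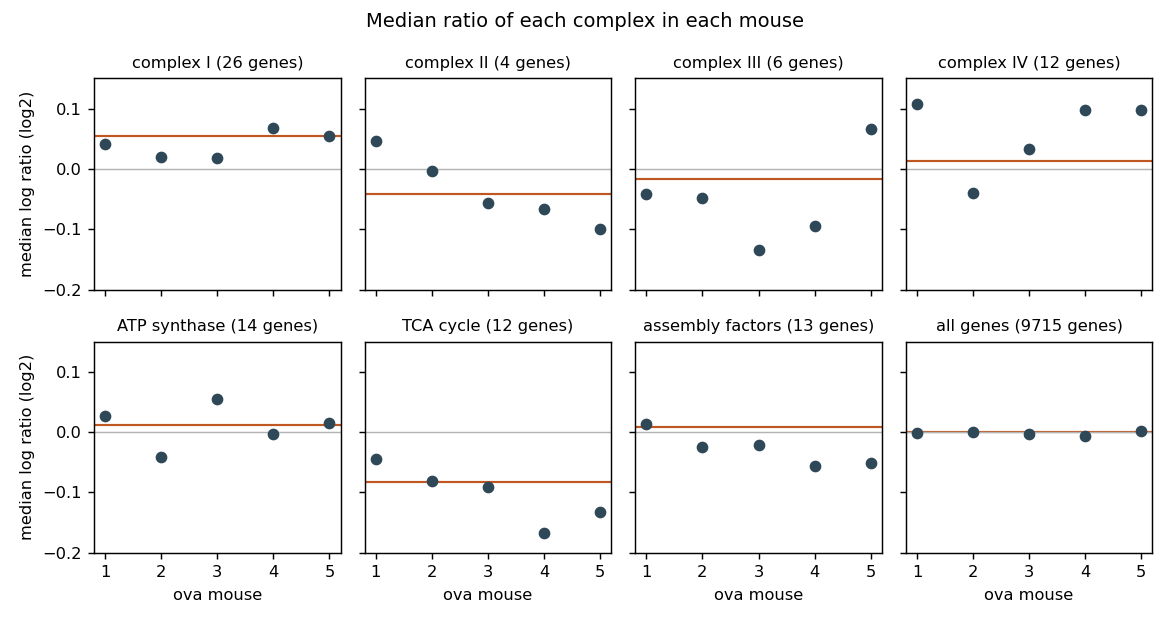
Each panel gives the median log ratio over the genes of 1 complex (y axis, log2) in each ova mouse (x axis), with an orange line for the median of the genes' mean ratios. Complex I lies above 0 and the TCA cycle below 0 in all 5 mice, and the median over all genes stays within 0.007 of 0.

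Markers of heart muscle, fat and brown fat were on the positive side together with Cox8b and Cox7a1, those of skeletal muscle on both sides. The counts of these and the other lists stand against 12.3% of all genes called above 0 and 15.2% below it. Of 18 heart muscle genes listed, 15 were measured, 7 passed above 0 and 0 below it, with a median of 0.23, against 0.00025 over all genes. Their smallest p-values belonged to Hrc, a calcium-binding protein of the sarcoplasmic reticulum (0.81), and Myl7, the atrial myosin light chain (0.68), while the myosin heavy chain gene Myh6 gave -0.07 and did not pass. Averaged over the 15 genes, the heart markers gave -0.03 in mouse 1 and 0.29 to 0.42 in mice 2 to 5, and Cox8b was also lowest in mouse 1. Across all genes, ratios also spread least in mouse 1 (SD 0.22, against 0.34 to 0.40 in mice 2 to 5). Cs, Idh3a, Fh1 and Cox7a1 likewise lay nearest to 0 in mouse 1, while Cox5a and Uqcrfs1 did so in mouse 3. Of 12 fat genes listed, 6 were measured and 5 passed on the positive side, of smallest p for Car3 (0.93) and Adipoq (1.11), with averages of 0.13 to 0.67 by mouse. Brown fat markers gave 2 calls on the positive side among 4 measured, Cidea (0.64) and the uncoupling protein gene Ucp1 (0.42), with averages of 0.13 to 0.39. Of 10 measured skeletal muscle genes, 2 passed on each side, from Atp2a1 (-1.72) to Tnnc2 (0.66, n = 4), with averages of -0.17 to -0.0053. The skeletal muscle list had a median of 0.12 and 7 of 10 means above 0, while its averages include Atp2a1, far below the other genes. The part of these cells in the ratios of Cox8b and Cox7a1 was not tested. Leukocyte genes passed on the negative side in 7 of 8 (averages of -0.74 to -0.31), ciliated cell genes in 2 of 5 (averages of -0.21 to 0.035). Alveolar type 2 genes gave 3 calls on the positive and 1 on the negative side among 6 (averages of -0.12 to 0.28). The part of these cell types in the ratios of Cs, Cox5a and the TCA cycle genes was not tested either.

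**Figure D4:**
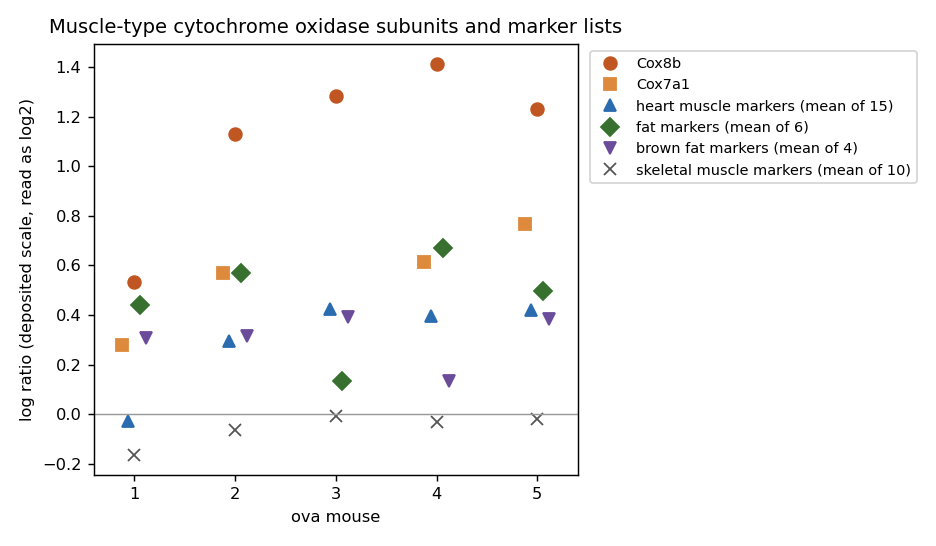
Log ratios (y axis, deposited scale read as log2) of Cox8b and Cox7a1 in each ova mouse (x axis), beside the average log ratio of the marker lists for heart muscle, fat, brown fat and skeletal muscle. Cox8b and the heart muscle markers are both lowest in mouse 1 (0.53 and -0.03), where the ratios of all genes also spread least. The average of the skeletal muscle markers stays below 0, with 1 of the 10 genes, Atp2a1, at -1.72. Cox7a1 has no value in mouse 3.

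Other genes of mitochondrial metabolism also fell on both sides. Of 19 measured partners of the TCA cycle, 5 passed below 0 and 0 above it. These included cytosolic malic enzyme, Me1 (-0.29), and glutamate dehydrogenase, Glud1 (-0.26), which feeds glutamate carbon into the cycle. Among 7 carriers and channels, the phosphate carrier gene Slc25a3 (-0.42) and the creatine kinase gene Ckmt1 (-0.47) were 2 of 3 calls on the negative side. Above 0 lay the ADP/ATP carrier gene Slc25a4 (0.34), the form known from heart and muscle, and Ucp1. Fatty acid oxidation genes gave 1 call on each side among 14, the long-chain acyl-CoA dehydrogenase gene Acadl (-0.20) and the enoyl-CoA isomerase gene Eci1 (0.24). Of 7 genes of ubiquinone and electron entry, 2 passed on the positive side, the proline dehydrogenase gene Prodh (0.44) and the electron transfer flavoprotein gene Etfa (0.27). Of 9 regulators of mitochondrial biogenesis, Tfam, the mitochondrial DNA packaging and transcription factor, passed on the negative side (-0.21), and Pprc1 (0.45) and Polrmt (0.16) on the positive side. Further assembly factors and inhibitors gave 3 negative and 4 positive calls among 15, of smallest p for the ATP synthase inhibitor gene Atpif1 (-0.32) and the complex IV assembly factor gene Coa3 (0.23). Chaperones and shape factors gave 4 negative calls and 1 positive among 15, from the fission dynamin gene Dnm1l (-0.32) to the protease gene Lonp1 (0.21). Median ratios of these 7 lists lay between -0.145 and 0.058, against 0.00025 over all genes.

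Mouse 4 differed from the others in the spread of the member genes. The SD of the log ratio across member genes was 0.16, 0.24, 0.24, 0.38 and 0.27 in mice 1 to 5, against 0.22, 0.38, 0.34, 0.36 and 0.40 across all genes. In mouse 4 alone the members thus spread as widely as all genes. The pairwise correlation of arrays across member genes ran from 0.44 to 0.79 (Pearson, median 0.63 over 10 pairs), against 0.67 to 0.84 (median 0.75) across all genes, with the control pool shared by all arrays and genes not independent. Probes 6, 18 or 24 IDs apart that named different genes correlated weakly in mean ratio (Pearson 0.14, 0.12 and 0.12). None of the members past the threshold had a neighbour at those distances whose mean ratio was over 1 in size. Only 135 of all 9715 genes exceeded that size, and the part of smaller neighbours in the calls was not tested.

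**Figure D5:**
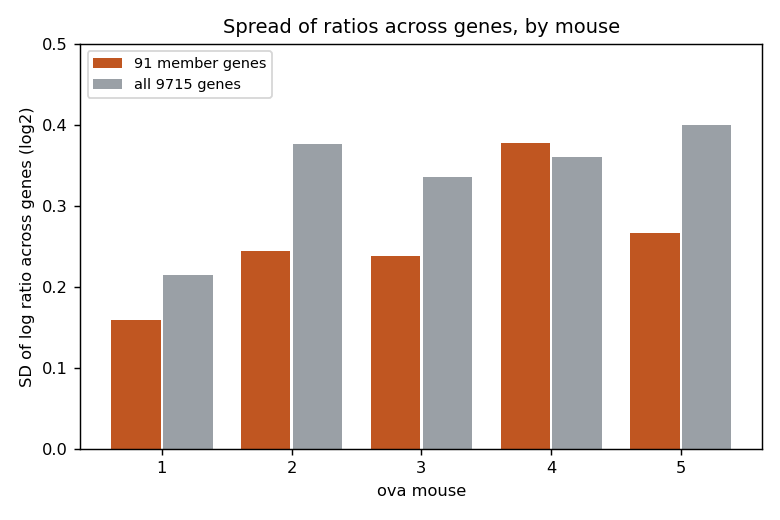
Bars give the SD of the log ratio across the 91 member genes and across all 9715 genes (y axis, log2) in each ova mouse (x axis). The members spread less than all genes in mice 1, 2, 3 and 5, and about as much in mouse 4 (0.38 against 0.36).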

How the data were processed

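Lung RNA of 5 ova mice was compared with 1 control pool on 2-colour arrays, 1 array per mouse. The deposited values are signed log ratios, read as log2 because sizes up to 5.17 exceed the 4.82 log10 units that a 16-bit scanner spans. The sources used here do not give log base, numerator, dyes, scanner, background correction or normalization. Spot brightness was not used here, so faint or saturated spots could not be told from others. Depth does not apply, and the number of arrays limits the precision.

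Array medians were set to 0. Probes naming 1 gene in GEO's platform annotation with values on at least 4 of 5 arrays (112 of 125 member probes) were averaged per gene, and 85 of 91 members had 1 probe. All 91 members carried a gene ID in the annotation. By symbol, 77 of them had an upstream sequence from RefSeq on GRCm38.p6, and why the others had none was not examined. Probes may share signal with related genes and pseudogenes, which was not tested; Ndufs5-ps is itself annotated as a pseudogene. Genes were tested in R 4.3.3 with the package limma 3.58.1 (intercept model, lmFit and eBayes, two-sided, Benjamini-Hochberg, threshold 0.05). The code was tested on simulated data in which 200 of 9715 genes were shifted. Of shifts of 0.2, 0.3 and 0.6 it recovered 0%, 26% and 91.5%, so small differences can fail to pass. In the data 2676 genes were called, so recovery there may differ from the simulation. Where a gene lacked a value, n is 4.

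Members and lists were chosen with earlier results of these data known. Named members are the 10 of largest mean, up to 3 of smallest p per complex and side, tissue-restricted and cytosolic or mitochondrial forms with their partners, Cycs, Cs, Cyc1 and the Sdh subunits. Up to 2 genes of smallest p per side are named from the 14 other lists, and any further gene was chosen after its values were seen. Alternatives covered centring, normalization, filters, probe summaries, array weights, the variance model, a minimum size of 0.2 (limma's treat) and leaving out each mouse.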

Additional observations from a re-analysis of the deposited data

Results flagged for a closer look

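In groups of 4 or 5 mice, 7 of 91 members had 1 mouse far from the others by Dixon's test at the 95% level. Chance flags about 1 group in 20, and 6.91% of all genes were flagged. In 6 of the 7 the mouse was mouse 4, which also held 35.5% of the flags over all genes. The complex I core subunit gene Ndufs8 had -1.06 in mouse 4, against -0.04 to 0.29 in the others. The ATP synthase gene Atp5c1 had -0.82 in mouse 4, against -0.21 to -0.033, and the ATP synthase stalk gene Atp5pb -0.67, against -0.12 to 0.019. Mdh1b had -0.48 in mouse 4, against -0.05 to 0.12. The complex I gene Ndufb2 had -0.035 in mouse 4, against 0.13 to 0.19. Ndufaf5 had 0.24 in mouse 4, against 0.17 in the 3 others that measured it. The ATP synthase c subunit gene Atp5g2 had -0.57 in mouse 2, against -0.18 to -0.047. The cause was not tested.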

How the results depend on the processing

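Of 32 recomputed counts of calls, 26 stayed within 1.5 times of 9 members on each side. Against a minimum size of 0.2 (limma's treat), 2 members passed below 0 and 2 above it. Leaving out 1 mouse gave 5 to 10 below 0 and 5 to 8 above it, both 5 without mouse 3 or mouse 5. There, 10 of 93 members (10.8%) passed in each case, against 1688 of 10258 genes (16.5%) without mouse 3 and 1601 of 10009 genes without mouse 5, with fewer arrays in the fit. Under the minimum size 4 of 91 members passed, against 6.12% of all genes. Medians of the complexes moved by less than their spread between mice in 116 of 117 recomputed values. The complex I median was 0.032 to 0.068 on leaving out a mouse. Definitions added after seeing the data (Ndufa4 under complex IV, complex IV without Cox7a1 and Cox8b, the cycle without Mdh1 and Mdh1b or with the Sdh subunits) were among those within the spread. Among genes, 2 values near 0 changed sign, Sdhb with quantile normalization (0.0014) and with arrays scaled to 1 median absolute deviation (0.0067), and Idh2 with that scaling (-0.0010). Ndufa3, called on the positive side at 0.20, changed side with its steadier probe (-0.022). On leaving out a mouse, Cox8a ranged from -0.086 to 0.0065, Idh2 from -0.017 to 0.038 and Sdhb from -0.078 to 0.043. In all, 472 of 541 recomputed values of named members kept side and call, 53 lost the call, 6 gained it and 10 changed side. No paired analysis was possible because the series has 1 group. Depth is not defined for these arrays, and signal over background was not used here.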
